A study of Mus musculus with 8 samples.

Results

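Nnt, Wdfy1, Gm13736, Gm28438, Capn11, Rps4l and Map3k7cl are 7 mouse genes whose read counts stepped between S89G-DMP1 and wild-type (WT) cells. They were picked by symbol, as genes with large steps between the genotypes that may belong to the strain background of the mice, out of 47729 genes counted in neural stem cells (NSCs) and 40562 counted in astrocytes. The rule gave no numeric threshold. Because the values in these same libraries chose the 7 genes, their counts and fold changes are given as a description, with no test.

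S89G-DMP1 mice carry a knock-in change of the Dmp1 gene that removes a glycosylation site of dentin matrix protein 1, a matrix protein made by bone cells and by some brain cells. RNA was sequenced from cultured cells of 10-week-old C57BL/6 mice, as the labels give strain and age. Astrocytes came from the cortex and were grown in serum, with 1 S89G-DMP1 and 1 WT library (the methods give an age of 3 months for mice used in this culture). NSCs came from the sub-ventricular zone and were grown as neurospheres, with 3 S89G-DMP1 and 3 WT libraries. By the study's methods, the knock-in was made in C57BL/6J embryonic stem cells, injected into Balb/c blastocysts, and the chimeras were crossed to C57BL/6J. The Neo cassette was removed by a cross to B6.129S4 mice that express FLP1, and heterozygotes were then intercrossed. The controls were wild-type C57BL/6 mice, with no substrain in the labels and no statement that they were littermates. Genotype and strain background therefore cannot be told apart in these libraries. The sources also do not say whether the NSC triplicates were separate mice or cultures, so the spread between them may be technical.

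Inbred mouse lines that were bred apart differ at many places in the genome, and some of these differences switch a gene's transcript on or off, shorten it, or add or remove a copy. Nnt is a widely known case, since C57BL/6J mice lack several exons of the gene and most other lines do not. A pseudogene is a copy of a gene that no longer encodes the full protein, and where the copy is almost identical to its parent, reads of either can be counted on the other.

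NSC libraries held 2354615 to 2588130 counted reads, and the astrocyte libraries 13016924 (S89G-DMP1) and 14008670 (WT). Dmp1 itself had 6, 3 and 5 counts in S89G-DMP1 NSCs, 18, 21 and 16 in WT NSCs, and 119 against 2 in S89G-DMP1 and WT astrocytes. The chi-square per gene (11136 genes) was 1.07 to 1.51 between NSC libraries that shared a genotype and 3.17 to 4.06 between those that did not. The summed level of 8 NSC markers was 5090 to 5370 CPM (counts relative to the TMM-scaled library total) in WT and 5620 to 5680 in S89G-DMP1 NSCs, and that of 8 astrocyte markers 1540 to 1600 and 2150 to 2220, with 4 of 6 fitted astrocyte markers called higher in S89G-DMP1 (edgeR, Benjamini-Hochberg). Fibroblast and mural cell markers summed to 1.71 to 3.79 CPM over the NSC libraries, with Col1a2, Dcn and Lum at 0. The WT library labelled astrocytes went against its label, with 6730 CPM for 8 fibroblast and mural cell markers and 113 for the 8 astrocyte markers. In the S89G-DMP1 library these sums were 4670 and 1080 CPM, and Acta2 (2470 CPM) and Col1a1 (1560 CPM) held most of the first. Of the 8 astrocyte markers, 6 were past 2-fold higher and 1 past 2-fold lower in S89G-DMP1, beside 17.3% and 12.8% of all counted genes. The S89G-DMP1 library thus held markers of both kinds. These sums are of different genes and are not scaled by length. The WT and S89G-DMP1 libraries also differed in the NSC markers (845 and 2270 CPM), 5 microglia markers (307 and 571 CPM) and 5 endothelial markers (161 and 16 CPM). Among the endothelial markers, Cdh5 alone held 151 CPM in WT and 1.6 in S89G-DMP1. Kdr went the other way (6 and 12.8 CPM), and Cldn5 was at 0 in both. The astrocyte libraries also differed in sex-linked transcripts, with 12172 Xist counts in WT and 74 in S89G-DMP1, and 0 and 1277 counts of Ddx3y. All 6 NSC libraries held both Xist (2718 to 3001 counts) and Ddx3y (45 to 77 counts). The part of these differences in the steps of the 7 genes was not tested. In such bulk samples, fewer cells of a type and less RNA per cell cannot be told apart.

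In NSCs, all 7 genes were counted well enough to be fitted among 11194 genes, and 4 of them (Nnt, Wdfy1, Gm13736, Gm28438) were higher and 3 (Capn11, Rps4l, Map3k7cl) lower in S89G-DMP1. For none of the 7 did the CPM of the genotypes overlap, as was the case for 30.7% of all fitted genes (14.8% with S89G-DMP1 higher and 16% with it lower). Over all fitted genes, 7.08% were called higher and 8.76% lower (edgeR's quasi-likelihood test, Benjamini-Hochberg adjusted p under 0.05), and since these values chose the 7 genes, nothing is read from either comparison. The median absolute log2 fold change of all fitted genes was 0.15, and 159 changed at least 2-fold. By the size of the fitted change, Gm13736 ranked 1, Capn11 3, Gm28438 6, Map3k7cl 9, Rps4l 11, Wdfy1 63 and Nnt 168 among the 11194 genes. Large steps chose the genes, so nothing is read from these ranks. Gm13736, Capn11, Gm28438 and Map3k7cl had at most 3 counts per library in one genotype. Their ranks rest on fitted values where only bounds are known (at least 9.19-, 3.85-, 4.25- and 4.3-fold).

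**Figure D1:**
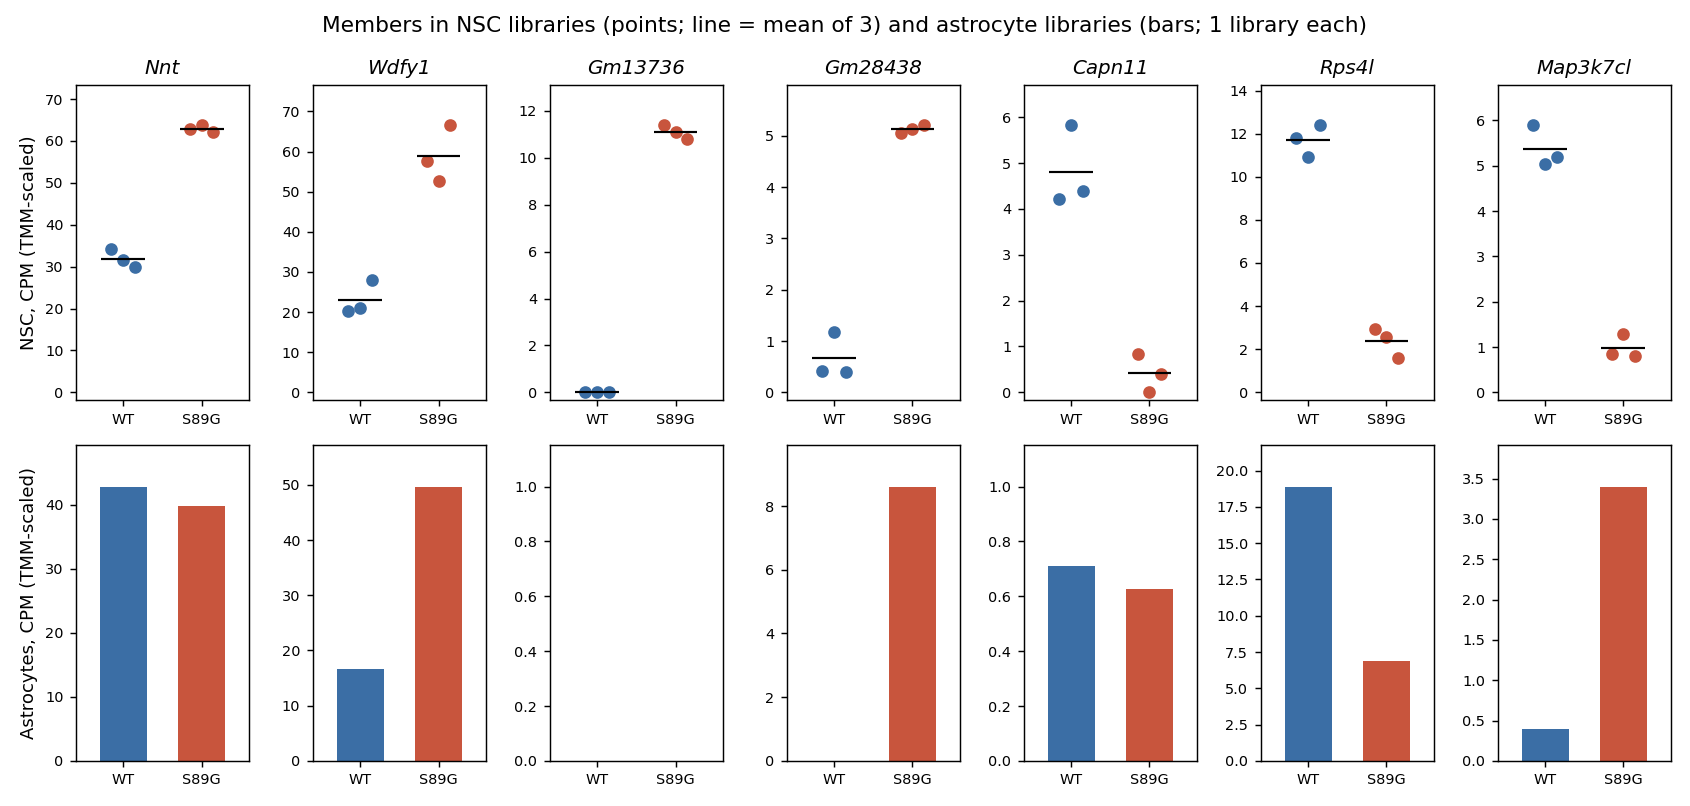
CPM (TMM-scaled, linear axes from 0) of the 7 genes in each of 3 WT and 3 S89G-DMP1 NSC libraries (upper row; line, mean) and in 1 WT and 1 S89G-DMP1 astrocyte library (lower row; bars). The genotypes separate for each gene in NSCs, whereas in astrocytes Nnt was near equal and Map3k7cl was higher in S89G-DMP1. In both astrocyte libraries Gm13736 had 0 counts, and Capn11 had 9, too few for a ratio.

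Gm28438 (ENSMUSG00000101939) is an unprocessed pseudogene of 345 bases at chr1:24612775-24613119 on the minus strand (GRCm38). It lies in a stretch of nuclear DNA copied from the mitochondrial genome and matches mt-Nd3, which encodes a subunit of respiratory complex I. In the GENCODE M21 transcripts, the pseudogene differed from mt-Nd3 at 1 of 345 bases, T3C, with the base of mt-Nd3 first and positions counted from 1 at its 5′ end. On the mitochondrial chromosome this is position 9461. The first 60 bases of both are shown, because they hold this difference (capital letter), and the remaining bases are the same.
mt-Nd3, first 60 bases: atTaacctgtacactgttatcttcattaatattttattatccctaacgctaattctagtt
Gm28438, first 60 bases: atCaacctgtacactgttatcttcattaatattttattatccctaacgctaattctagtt

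Gm28438 was near 0 in WT cells and present in S89G-DMP1 cells of both types. In NSCs it had 12, 12 and 13 counts in the S89G-DMP1 libraries and 1, 3 and 1 in the WT libraries. Its level was 5.13 ± 0.0799 CPM (SD, n = 3) in S89G-DMP1 and 0.662 ± 0.436 CPM (SD, n = 3) in WT NSCs, at least 4.25-fold higher against a floor of 3 counts per library. In astrocytes it had 124 counts in S89G-DMP1 (8.61 CPM) and 0 in WT, at least 36.4-fold higher. By counts, no library of either genotype came near those of the other. The deposited TPM went the other way in NSCs, at 576 in WT replicate 3 and 0 in all other NSC libraries. Limma on log2(TPM + 1) gave a log2 difference of -3.06.

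Counts of mt-Nd3, a gene described here after its values were seen, went the other way. It had 14, 11 and 15 counts in S89G-DMP1 NSCs and 28, 34 and 28 in WT NSCs (log2 fold change -1.11, standard error 0.26). In astrocytes it had 147 counts in S89G-DMP1 and 312 in WT. Added together, the gene and its copy had 26, 23 and 28 counts in S89G-DMP1 NSCs and 29, 37 and 29 in WT NSCs, and 271 and 312 in S89G-DMP1 and WT astrocytes. Gm28438 took 46.2%, 52.2% and 46.4% of that sum in S89G-DMP1 NSCs (48.3% ± 3.41, SD, n = 3) and 3.45%, 8.11% and 3.45% in WT NSCs (5.0% ± 2.69, SD, n = 3). In S89G-DMP1 astrocytes the share was 45.8%, with a 95% exact binomial interval of 39.7 to 51.9%, which covers counting error only. In WT astrocytes it was 0 of 312 counts, with an interval that reaches up to 1.18%. The 4 S89G-DMP1 libraries thus lay between 45.8% and 52.2%, although their depths differed between the cell types. Which base the reads carried at position 3 cannot be read from count tables.

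**Figure D2:**
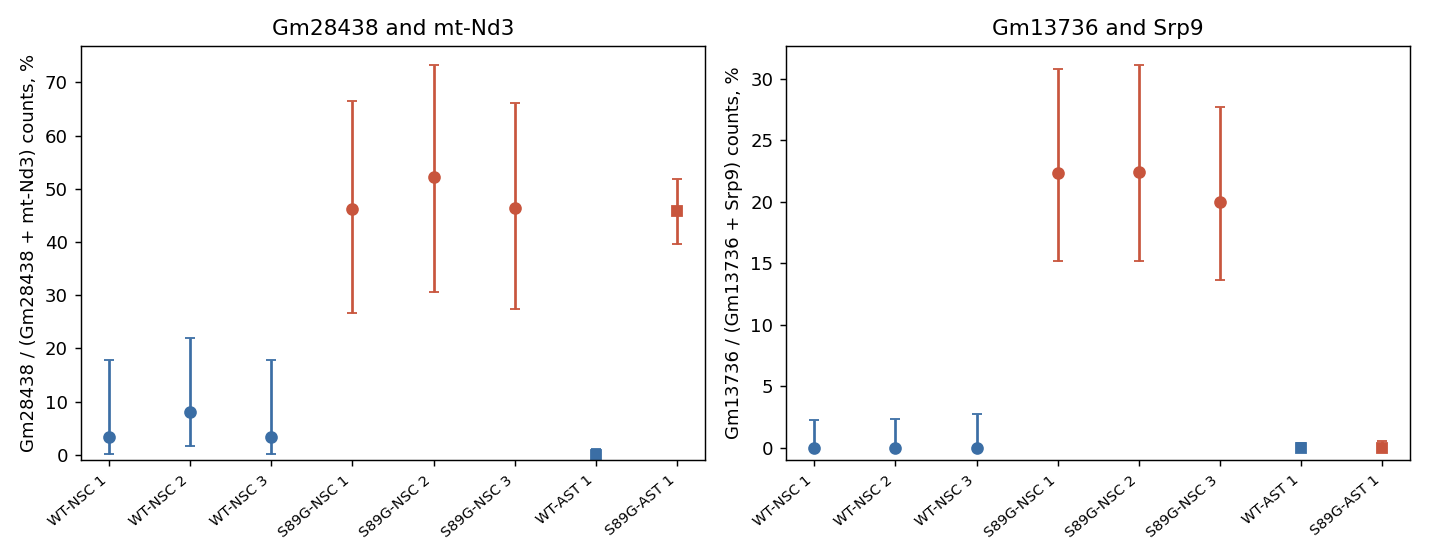
Counts of Gm28438 as a percentage of Gm28438 plus mt-Nd3 (left) and of Gm13736 as a percentage of Gm13736 plus Srp9 (right) in each of 6 NSC libraries (circles) and 2 astrocyte libraries (squares), blue for WT and red for S89G-DMP1; bars are 95% exact binomial intervals. The Gm28438 share lay between 45.8% and 52.2% in the 4 S89G-DMP1 libraries and at most at 8.11% in the 4 WT libraries, while Gm13736 had a share above 0 in the 3 S89G-DMP1 NSC libraries only.

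The 6 other pseudogenes annotated in the same nuclear copy showed no such step; they too were picked after their values were seen. Gm28439, Gm10222, Gm28437, Gm10925 and Gm28661 had no difference over their whole length from mt-Nd4, mt-Nd4l, mt-Co3, mt-Atp6 and mt-Co2. Gm29216 had 1 mismatch to mt-Co1 over 483 aligned bases. Their NSC counts overlapped between the genotypes, with 5 to 11 counts of Gm29216 in WT and 5 to 14 in S89G-DMP1, and 7 to 13 and 8 to 16 counts of Gm28437. Gm28437 (log2 fold change 0.41), Gm10925 (-0.39) and Gm28661 (-0.31) were fitted and not called, with adjusted p = 0.517, 0.408 and 0.583 (edgeR, Benjamini-Hochberg). In astrocytes none of the 6 exceeded 2 counts in either library, although mt-Co1 had 115240 counts in S89G-DMP1 and 122254 in WT.

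**Figure D3:**
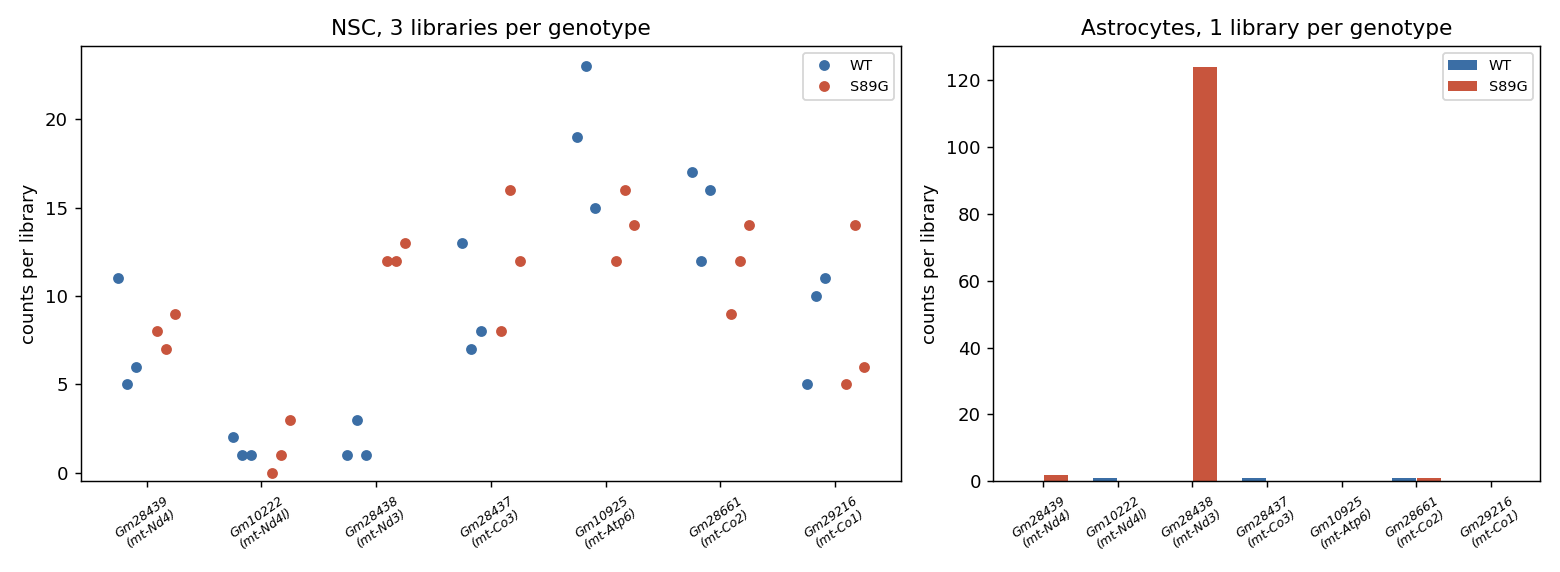
Counts per library of the 7 pseudogenes in the nuclear copy of mitochondrial DNA (matching gene in brackets) in 3 WT and 3 S89G-DMP1 NSC libraries (left; points) and in 1 WT and 1 S89G-DMP1 astrocyte library (right; bars), on linear axes. Among these 7, Gm28438 alone separates the genotypes, with 12 to 13 against 1 to 3 counts in NSCs and 124 against 0 in astrocytes.

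Gm13736 (ENSMUSG00000082908) is a processed pseudogene of 253 bases at chr2:87526145-87526397 on the plus strand (GRCm38). Processed pseudogenes are copies of a spliced transcript that were put back into the genome. All of its 253 bases were identical to bases 156 to 408 of the Srp9 transcript, which encodes a subunit of the signal recognition particle, the complex that brings nascent secretory proteins to the endoplasmic reticulum. The sequence is shown because a read within it matches both places equally.
Gm13736, bases 1 to 253: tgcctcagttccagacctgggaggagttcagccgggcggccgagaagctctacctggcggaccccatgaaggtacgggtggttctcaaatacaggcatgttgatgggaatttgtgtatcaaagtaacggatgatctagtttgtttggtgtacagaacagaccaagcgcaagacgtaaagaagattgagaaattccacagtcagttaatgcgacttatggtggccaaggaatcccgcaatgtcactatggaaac

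Gm13736 was counted in S89G-DMP1 NSCs and nowhere else. The S89G-DMP1 NSC libraries held 27, 26 and 27 counts (11.1 ± 0.272 CPM, SD, n = 3), and the WT NSC libraries 0, 0 and 0, so that the level was at least 9.19-fold higher. Both astrocyte libraries held 0 counts. How reads that match both places equally were counted is not given for either cell type. Gm10925, identical over its length to mt-Atp6, had 12, 16 and 14 counts in S89G-DMP1 NSCs and 19, 23 and 15 in WT NSCs. It had 0 in both astrocyte libraries. Absence of Gm13736 transcripts from astrocytes therefore cannot be read from these counts. Srp9, taken up after its values were seen, had 94, 90 and 108 counts in S89G-DMP1 NSCs and 160, 153 and 134 in WT NSCs (log2 fold change -0.57, standard error 0.11), and 639 and 878 counts in S89G-DMP1 and WT astrocytes. Gm13736 made up 22.3%, 22.4% and 20.0% of the summed counts of the pair in S89G-DMP1 NSCs (21.6% ± 1.36, SD, n = 3). In WT NSCs the counts of 0 allow a share of at most 1.88% to 2.24%, and in astrocytes of at most 0.469% (S89G-DMP1) and 0.342% (WT). Unlike that of Gm28438, the share of Gm13736 differed between the S89G-DMP1 cells of the 2 types, which were deposited in separate tables.

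Nnt (ENSMUSG00000025453, chr13:119335448-119408997, minus strand, GRCm38) encodes the nicotinamide nucleotide transhydrogenase of the inner mitochondrial membrane, which uses the proton gradient to make NADPH from NADH. NADPH in turn feeds the glutathione and thioredoxin systems that remove peroxides. The S89G-DMP1 NSC libraries held 149, 149 and 155 counts, and the WT libraries 81, 81 and 75. Nnt was at 62.9 ± 0.809 CPM (SD, n = 3) in S89G-DMP1 and 31.9 ± 2.12 CPM (SD, n = 3) in WT NSCs, a log2 fold change of 0.98 (standard error 0.12), or 1.98-fold. Replicates of each genotype lay within a few CPM of each other. The astrocyte libraries showed no such step, with 573 counts in S89G-DMP1 (39.8 CPM) and 542 in WT (42.8 CPM). The astrocyte log2 ratio was -0.10 with a 95% counting interval of -0.28 to 0.07, and it was 0.19 with the library totals as the only scale. Nnt was thus counted in every WT library of both cell types. GENCODE lists a further Nnt entry (ENSMUSG00000116207) that shares 3339 exon bases with this one and that neither table holds. Counts per exon, which would show whether the exons absent from C57BL/6J were read, were not analysed here.

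Of 19 genes of mitochondrial NADPH and peroxide metabolism, all fitted in NSCs, edgeR (Benjamini-Hochberg) called 4 higher and 0 lower in S89G-DMP1. Of all fitted genes, 7.08% were called higher and 8.76% lower. An unadjusted p under 0.05 gave 9 higher and 3 lower of the 19, and DESeq2 called 2 higher and 0 lower. The 19 genes had a median log2 fold change of 0.14 against 0 for all 11194 genes. Called were Mthfd2 (0.50, standard error 0.10, adjusted p = 1.37e-04), Shmt2 (0.30, 0.06, 3.99e-04) and Mthfd1l (0.26, 0.07, 0.00439), enzymes of mitochondrial one-carbon metabolism, and the mitochondrial thioredoxin Txn2 (0.23, 0.08, 0.0422). The most abundant members not called were Idh2 (-0.17, adjusted p = 0.0663) and Glud1 (0.17, adjusted p = 0.0566). Txn2 lost its call without S89G-DMP1 replicate 2 (0.22, adjusted p = 0.115) or 3 (0.15, adjusted p = 0.312) and without WT replicate 1 (0.21, adjusted p = 0.109) or 3 (0.17, adjusted p = 0.221) in edgeR. DESeq2 called neither Txn2 nor Mthfd1l. In the astrocyte libraries, 2 of the 19 were past 2-fold higher and 2 past 2-fold lower in S89G-DMP1. Of all counted genes, 17.3% were past 2-fold higher and 12.8% lower.

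Wdfy1 (ENSMUSG00000073643, chr1:79702262-79776143, minus strand, GRCm38) encodes a protein with WD repeats and a lipid-binding FYVE domain that sits on early endosomes and links the receptors TLR3 and TLR4 to their adaptor. It was higher in S89G-DMP1 cells of both types. NSC libraries held 137, 123 and 166 counts in S89G-DMP1 and 48, 54 and 70 in WT, or 59 ± 7.06 CPM against 23.1 ± 4.26 CPM (SD, n = 3 each). The log2 fold change was 1.35 (standard error 0.13), or 2.56-fold, and by counts the lowest S89G-DMP1 library was far above the highest WT library. By the deposited TPM, WT replicate 3 (40.3) was above S89G-DMP1 replicate 3 (32.8). Limma on log2(TPM + 1) gave a log2 difference of 0.65. Astrocytes held 715 counts in S89G-DMP1 (49.7 CPM) and 210 in WT (16.6 CPM), a log2 ratio of 1.57 with a 95% counting interval of 1.36 to 1.81, or 2.98-fold. Levels within a genotype were of like size in the 2 cell types, though these were counted and scaled in separate tables. Wdfy1 shares 126 exon bases with Mrpl44 on the opposite strand, and whether the counting used strand is not given in the sources used here. Mrpl44 had 59, 50 and 65 counts in S89G-DMP1 NSCs and 37, 66 and 50 in WT NSCs, which overlap, and 158 and 151 counts in S89G-DMP1 and WT astrocytes.

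Of 31 genes with FYVE domains or in signaling from TLR3 and TLR4, 24 were fitted in NSCs. By edgeR 0 were called higher and 2 lower, beside 7.08% and 8.76% of all fitted genes. An unadjusted p under 0.05 gave 2 and 6, and DESeq2 called 0 and 1. The median log2 fold change of the 24 was -0.10. The called genes were Zfyve1, another FYVE protein (-0.49, standard error 0.11, adjusted p = 4.6e-04, edgeR with Benjamini-Hochberg adjustment), and Tbk1, the kinase that phosphorylates IRF3 (-0.39, standard error 0.13, adjusted p = 0.0248). Tbk1 lost its call in edgeR without S89G-DMP1 replicate 2 (-0.27, adjusted p = 0.207) or WT replicate 2 (-0.33, adjusted p = 0.13). It also lost it in DESeq2 (adjusted p = 0.207). The abundant Wdfy3 (-0.15, adjusted p = 0.0699) and Traf3 (-0.01, adjusted p = 0.967) were not called. In astrocytes, 2 of the 31 were past 2-fold in each direction, beside 17.3% (higher) and 12.8% (lower) of all counted genes.

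Rps4l (ENSMUSG00000063171, chr6:148354656-148355598, plus strand, GRCm38) is annotated as a transcribed processed pseudogene and is related to Rps4x, which encodes ribosomal protein S4. It was lower in S89G-DMP1 cells of both types. NSC libraries held 7, 6 and 4 counts in S89G-DMP1 (2.37 ± 0.693 CPM, SD, n = 3) and 28, 28 and 31 in WT (11.7 ± 0.758 CPM, SD, n = 3). The log2 fold change was -2.28 (standard error 0.32), or 4.86-fold lower. Astrocytes held 99 counts in S89G-DMP1 (6.88 CPM) and 240 in WT (18.9 CPM), a log2 ratio of -1.44 with a 95% counting interval of -1.82 to -1.12, or 2.72-fold lower. The genotypes did not overlap in NSCs, and in astrocytes the gap was beyond counting error.

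Unlike the pseudogenes above, Rps4l has no near-identical relative among the counted genes. Its identity to Rps4x was 79.7% over 814 aligned bases. A closer copy, Rps4l-ps (93.3% over 789 bases), had 0 counts in every library. Rps4x was counted far more often, with 1696, 1714 and 1950 counts in S89G-DMP1 NSCs and 1505, 1568 and 1586 in WT NSCs (log2 fold change 0.25, standard error 0.05, adjusted p = 1.63e-04, edgeR with Benjamini-Hochberg adjustment), and 4942 and 4133 counts in S89G-DMP1 and WT astrocytes (log2 ratio 0.07). Rps4l took 0.322% ± 0.106 of the summed counts in S89G-DMP1 and 1.83% ± 0.085 in WT NSCs (SD, n = 3 each). The gene lies within Tmtc1 on the opposite strand and shares 0 exon bases with it. Tmtc1 had 23, 21 and 22 counts in S89G-DMP1 NSCs and 24, 25 and 29 in WT NSCs, and 560 and 3636 counts in S89G-DMP1 and WT astrocytes. It was thus also lower in the astrocyte library in which Rps4l was lower, and its part in the Rps4l count there was not tested.

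Map3k7cl (ENSMUSG00000025610, chr16:87553330-87595336, plus strand, GRCm38) encodes a small protein that resembles the C-terminal end of the kinase TAK1, without its kinase domain. Its step had opposite signs in the cell types. NSC libraries held 2, 3 and 2 counts in S89G-DMP1 (0.976 ± 0.267 CPM, SD, n = 3) and 14, 13 and 13 in WT (5.38 ± 0.455 CPM, SD, n = 3), at least 4.3-fold lower against the floor of 3 counts. Astrocytes held 49 counts in S89G-DMP1 (3.4 CPM) and 5 in WT (0.395 CPM), a log2 ratio of 2.71 with a 95% counting interval of 1.79 to 4.79, or 6.54-fold higher. The TAK1 gene Map3k7 itself did not pass the test in NSCs (log2 fold change 0.00, standard error 0.07, adjusted p = 0.986, edgeR with Benjamini-Hochberg adjustment), nor did Tab2 (0.06, adjusted p = 0.671), which encodes an adaptor of TAK1. Of 12 genes of the TAK1 complex and its targets, edgeR called 0 higher and 1 lower, beside 7.08% and 8.76% of all fitted genes. An unadjusted p under 0.05 gave 0 and 3, and DESeq2 called 0 and 0. The median log2 fold change of the 12 was -0.02. The called gene was the kinase gene Map2k3 (-0.42, standard error 0.13, adjusted p = 0.0155). It lost its call without S89G-DMP1 replicate 1 (-0.41, adjusted p = 0.0505) or 2 (-0.39, adjusted p = 0.0732), without WT replicate 3 (-0.35, adjusted p = 0.108), and in DESeq2 (adjusted p = 0.16). In astrocytes, 1 of the 12 was past 2-fold in each direction, beside 17.3% (higher) and 12.8% (lower) of all counted genes.

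Capn11 (ENSMUSG00000058626, chr17:45630204-45659325, minus strand, GRCm38) encodes a calpain, a calcium-dependent protease, and is known for its expression in testis. It had 2, 0 and 1 counts in S89G-DMP1 NSCs (0.414 ± 0.421 CPM, SD, n = 3) and 10, 15 and 11 in WT NSCs (4.81 ± 0.884 CPM, SD, n = 3), at least 3.85-fold lower. Astrocytes held 9 counts in each library, under the 10 counts required for a ratio, and at this depth a log2 difference between -1.69 and 1.32 was not detectable. Of 15 other genes of the calpain system, 6 were fitted in NSCs. By edgeR 0 were called higher and 1 lower, beside 7.08% and 8.76% of all fitted genes. An unadjusted p under 0.05 gave 0 and 3, and DESeq2 called 0 and 1. The median log2 fold change of the 6 was -0.12. The called gene was Capn2, a broadly expressed calpain (-0.35, standard error 0.08, adjusted p = 0.00122, edgeR with Benjamini-Hochberg adjustment). Capns1, the common small subunit (-0.15, adjusted p = 0.103), and Capn7 (0.18, adjusted p = 0.26) were not called. In astrocytes, 1 of the 11 such genes counted was past 2-fold higher and 2 past 2-fold lower, beside 17.3% and 12.8% of all counted genes.

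Between the cell types, the 7 genes therefore showed several patterns. Of the 5 genes with a ratio in astrocytes, 3 were past 2-fold higher in S89G-DMP1 (Wdfy1, Gm28438, Map3k7cl), 1 was past 2-fold lower (Rps4l) and Nnt was within 2-fold, beside 17.3% (higher) and 12.8% (lower) of the 15680 counted genes. The astrocyte values also chose the genes, so nothing is read from these counts. Scaling by library size alone moved the median log2 ratio of all counted astrocyte genes from 0.01 to 0.30 and the higher share of the genes past 2-fold from 57.4% to 69.7%. Under that scaling Nnt turned from -0.10 to 0.19, and the other 4 kept their signs. Marker sums and sex-linked transcripts differed between the same pair of libraries, and their part in any of these ratios was not tested.

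**Figure D4:**
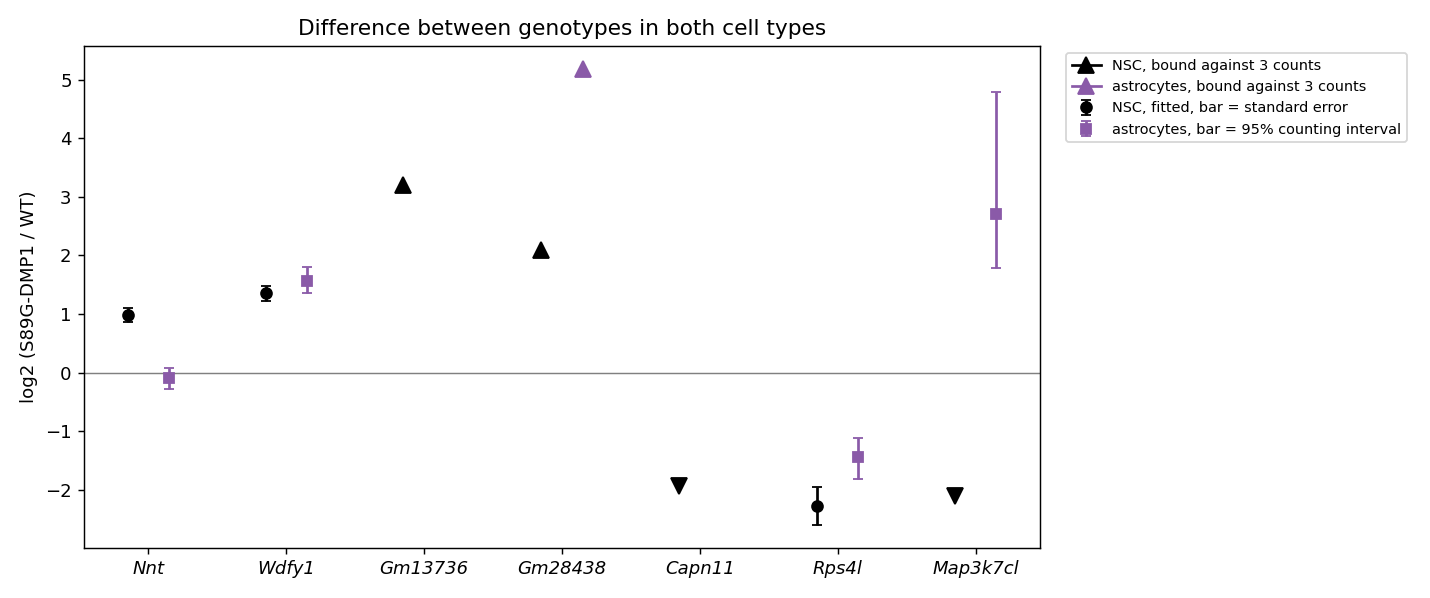
Log2 ratio of S89G-DMP1 to WT for the 7 genes in NSCs (black; circles, edgeR estimate with standard error from 3 libraries per genotype) and in astrocytes (purple squares, 1 library per genotype, with 95% counting intervals). Triangles are bounds against 3 counts, pointing to where the ratio lies; Gm13736 and Capn11 have no astrocyte ratio. Wdfy1 and Rps4l have like signs in both, Map3k7cl opposite signs, and the astrocyte interval of Nnt covers 0.

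Per kilobase of exon, the order of the genes differed by genotype. The length taken was that of all annotated exons of a gene together, 7037 bases for Nnt and 6488 for Wdfy1. Their longest single transcripts have 3464 and 4551 bases, so places in the order depend on the length taken. In WT NSCs the order was Rps4l (12.4 ± 0.804 CPM per kb, SD, n = 3), Nnt (4.53 ± 0.301), Wdfy1 (3.55 ± 0.657), Map3k7cl (3.26 ± 0.276), Gm28438 (1.92 ± 1.26) and Capn11 (1.78 ± 0.326). Gm13736, at 0 counts, has no place in this order, since the floor of 3 counts is 4.78 CPM per kb for so short a gene, and Gm28438 was also under its floor of 3.51. On this length, Wdfy1 and Map3k7cl were within their spread of each other. In S89G-DMP1 NSCs the order was Gm13736 (43.9 ± 1.07 CPM per kb, SD, n = 3), Gm28438 (14.9 ± 0.232), Wdfy1 (9.09 ± 1.09), Nnt (8.94 ± 0.115), Rps4l (2.52 ± 0.735), Map3k7cl (0.591 ± 0.162) and Capn11 (0.153 ± 0.156). On this length, Wdfy1 and Nnt did not differ beyond their spread there. Map3k7cl and Capn11 were under their floors of 0.758 and 0.461 CPM per kb. Reads within Gm13736 match Srp9 equally, and Gm28438 differs from mt-Nd3 at 1 base. The places of these pseudogenes therefore describe counts, not the level of their own transcripts.

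To see whether a step extended to nearby genes, the 5 closest annotated genes on each side of each of the 7 genes were taken. Of these 70 neighbours, 20 were fitted in NSCs, and edgeR called 0 higher and 3 lower (15%, against 15.8% of all fitted genes called in either direction). An unadjusted p under 0.05 gave 1 higher and 3 lower, and DESeq2 called 0 and 3. Their median log2 fold change was -0.12. The called neighbours were Serpine2, a protease inhibitor gene near Wdfy1 (-0.33, standard error 0.05, adjusted p = 4.41e-08, edgeR with Benjamini-Hochberg adjustment), Bach1, a transcription repressor gene near Map3k7cl (-0.37, 0.09, 0.00141), and Tmem63b, an ion channel gene near Capn11 (-0.29, 0.06, 3.96e-04). Serpine2 was thus lower beside a gene that was higher, whereas Bach1 and Tmem63b were lower beside genes that were also lower. The log2 fold changes of the fitted neighbours ran from -0.39 to 0.41. Since the 7 genes were chosen for their steps, no size of a neighbour's change is read against them. Of the neighbours of Nnt 3 were fitted and none called (0 at an unadjusted p under 0.05 and 0 by DESeq2), and of those of Gm13736 none was fitted. Within 1 Mb, a window chosen after seeing the data, 66 genes were fitted, and 5 were called higher and 6 lower (16.7%). Around Nnt this window held 8 fitted genes, of which 2 were called higher and 0 lower, Hmgcs1 (0.50, adjusted p = 5.81e-14, edgeR with Benjamini-Hochberg adjustment) and Nim1k (0.42, adjusted p = 0.0395), both named after their values were seen. In astrocytes, 23 neighbours were counted, with 3 past 2-fold higher and 5 past 2-fold lower, beside 17.3% and 12.8% of all counted genes.

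**Figure D5:**
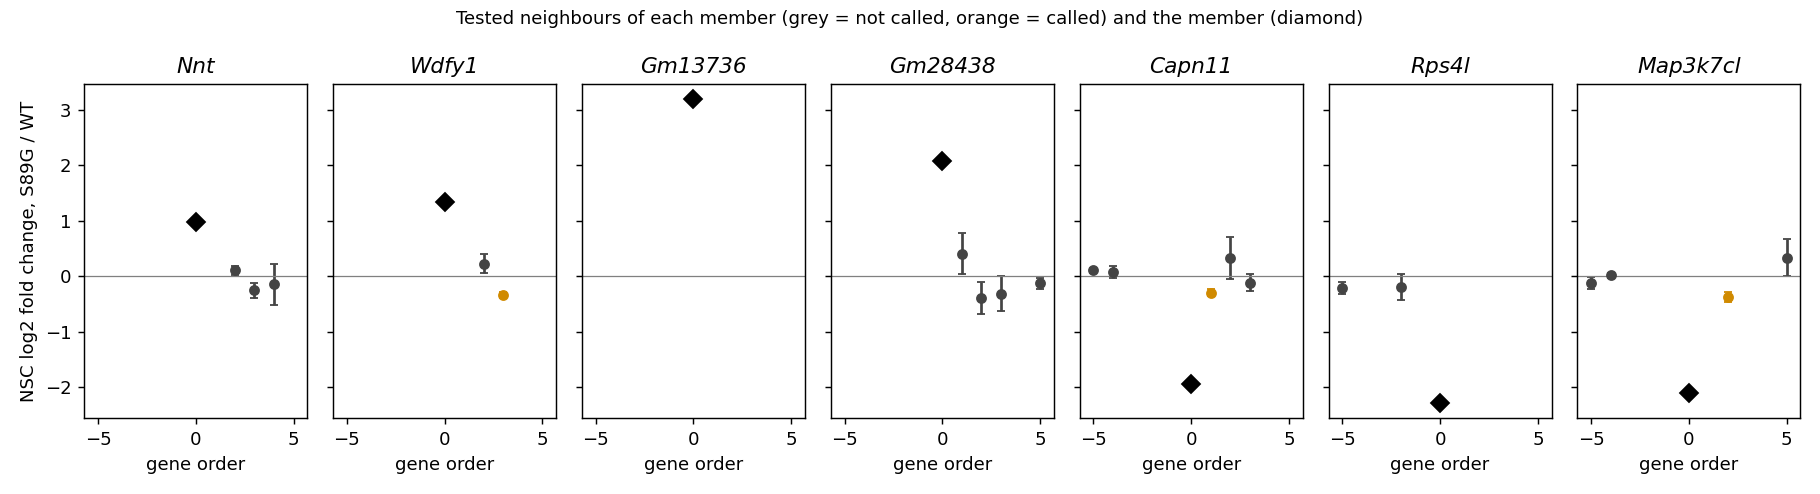
NSC log2 fold change (S89G-DMP1 over WT) of the fitted genes among the 5 neighbours on each side of each of the 7 genes, by gene order along the chromosome, with standard errors (n = 3 per genotype); orange marks genes called by edgeR, and the diamond is the gene itself, at its bound where a genotype had at most 3 counts per library. Neighbours lie between -0.39 and 0.41, and no neighbour of Gm13736 was fitted; the diamonds were chosen for their size.

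A list of 14 other genes known for alleles that differ between laboratory mouse strains was also examined. In NSCs 6 of them were fitted, and edgeR called 1 higher and 2 lower, too few genes to set against the 7.08% and 8.76% of all fitted genes. An unadjusted p under 0.05 gave the like counts, 1 and 2, and DESeq2 called 0 and 0. Their median log2 fold change was 0.10. Ide, the insulin-degrading enzyme, was higher (0.23, standard error 0.07, adjusted p = 0.0084, edgeR with Benjamini-Hochberg adjustment). Cyfip2, a regulator of actin assembly that carries a known missense difference between C57BL/6 substrains, was lower (-0.35, standard error 0.09, adjusted p = 0.00377). Ahr, the aryl hydrocarbon receptor, was lower as well (-1.29, standard error 0.43, adjusted p = 0.0285) at a low level (4.83 ± 1.01 CPM in WT, and in S89G-DMP1 1.94 ± 1.05, SD, n = 3 each). Glo1 (0.15, adjusted p = 0.218) and Disc1 (0.05, adjusted p = 0.879) were not called. All 3 calls were lost in DESeq2, and each was lost in edgeR without S89G-DMP1 replicate 3 (Ide 0.19, adjusted p = 0.0661; Cyfip2 -0.26, adjusted p = 0.0756; Ahr -1.32, adjusted p = 0.0798). Ide was also lost without WT replicate 3 (0.19, adjusted p = 0.0732), and Ahr without S89G-DMP1 replicate 2 (-0.96, adjusted p = 0.181) or WT replicate 3 (-1.11, adjusted p = 0.146). In astrocytes 9 of the 14 were counted, with 1 past 2-fold in each direction, beside 17.3% (higher) and 12.8% (lower) of all counted genes.

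Over the 5 lists together, 67 of 91 genes were fitted in NSCs, and 5 were called higher and 6 lower, or 16.4% against the 15.8% of all fitted genes. Their log2 fold changes ran from -1.29 to 0.50. In astrocytes 82 of the 91 were counted, with 7 past 2-fold higher and 8 past 2-fold lower, where 30.1% of all counted genes were past 2-fold in either direction.

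A search for the pattern of a full step found 5 genes in NSCs with at most 3 counts in each library of one genotype and at least 10 in each library of the other. These were Gm13736 and Gm28438, high in S89G-DMP1, and Map3k7cl, Capn11 and Uba1y, high in WT. Uba1y, a Y-linked ubiquitin-activating enzyme gene, had 67, 58 and 68 counts in WT NSCs and 3, 1 and 0 in S89G-DMP1 NSCs. The other Y-linked genes counted did not follow it, since Ddx3y had 65, 54 and 60 counts in WT and 56, 45 and 77 in S89G-DMP1, and Kdm5d 77, 80 and 59 against 60, 48 and 56. In astrocytes Uba1y had 1 count in S89G-DMP1 and 0 in WT.

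The profiles of other genes over the 6 NSC libraries were compared with those of the 7 genes by Pearson's r of log2 CPM, as a description. With 3 libraries per genotype, any gene that separates the genotypes cleanly reaches a high r, and 141 to 307 genes reached 0.95 with each of the 7. The closest were Yars2, Anxa3 and ENSMUSG00000095041 for Nnt (r = 0.997 to 0.999), Nol7, Smim7 and Fam135b for Wdfy1 (0.995 to 0.997), and Aldh1l1 and Gpd2 for Gm13736 (0.999 each). For Gm28438 they were Acot11, Mamdc2 and Tmem250-ps (0.993 to 0.996), for Capn11 Pde9a, Phf21b and Dmp1 (0.995 to 0.998), for Rps4l Sulf2, Sgsm2 and Fbn1 (0.998 to 0.999), and for Map3k7cl Stard9, Afap1 and Cavin1 (0.999 each). Their own fold changes were mostly smaller, with log2 values of 0.49 for Yars2, 0.32 for Nol7 and -0.33 for Fbn1, against -1.90 for Dmp1.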

How the data were processed

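Before alignment the authors discarded low-quality reads and those holding adapter or undetermined bases, and aligned the rest with TopHat2 2.0.9 and a Bowtie2 2.0.6 index (per the labels and methods). The counting program, genome build, annotation and use of strand are not given in the sources used here. The authors deposited raw counts per gene for all 8 libraries, FPKM for astrocytes and TPM for NSCs. The deposited TPM lists some well counted genes at 0, Gm13736 among them in all 6 NSC libraries, so counts were used for the main comparison and FPKM and TPM as alternatives.

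For NSCs, filterByExpr and TMM factors came before the test of edgeR 4.0.16 (R 4.3.3; quasi-likelihood, genotype only, Benjamini-Hochberg adjustment over 11194 genes, threshold 0.05). Astrocytes, with 1 library per genotype, had no test. Their log2 ratios used TMM-scaled CPM, a prior count of 2 and only genes reaching 10 counts in at least one of both libraries, with 95% exact binomial counting intervals. Where all libraries of a genotype had 3 counts or fewer, 3 counts stood in for each, which gives a lower bound of the fold. Limits of a share at a count of 0 are the upper ends of 95% exact binomial intervals. Depth, 2354615 to 2588130 counts per NSC library, limits the genes with few counts. In simulated data for the NSC comparison (11201 genes), 85 of 100 genes changed 2-fold, 45 of 97 changed by a log2 of 0.5 and 7 of 11004 unchanged genes were called.

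Gene positions and transcripts are those of GENCODE M21 (GRCm38), in which 98.9% of NSC and 98.5% of astrocyte gene identifiers were found. Relatives were searched with BLAST 2.17.0 over at least 100 aligned bases.

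The 7 genes and the lists were chosen with earlier results of these data known. Named beside them are, per list, the called genes (at most 5) and the 2 most abundant uncalled ones, called neighbours, and the 3 genes most like each in profile, of which 1 is not reported here. Genes chosen after their values were seen are marked so; Uba1y, Tmtc1, Mrpl44 and Rps4l-ps are also of that kind as described here. Alternatives were DESeq2 1.42.0, other scalings and filters, limma 3.58.1 on TPM, FPKM for astrocytes, each NSC library left out in turn, and the replicate number as a block.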

Additional observations from a re-analysis of the deposited data

Results flagged for a closer look

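For the genes below, the 3 libraries of each NSC genotype lay apart and the astrocyte ratio of S89G-DMP1 to WT had the opposite sign, with a 95% counting interval that did not cover 0. Astrocytes had 1 library per genotype, so none of these differences between the cell types was tested. Map3k7cl had a log2 ratio of 2.71 in astrocytes and a fitted log2 fold change of -2.41 in NSCs, where S89G-DMP1 was at most 3 counts in each library. Among the genes of mitochondrial one-carbon metabolism, the astrocyte log2 ratios were -1.11 for Mthfd2, -0.52 for Mthfd1l and -0.37 for Shmt2, against NSC log2 fold changes of 0.50, 0.26 and 0.30. The astrocyte log2 ratio was 0.35 for Zfyve1 (NSC -0.49), 0.62 for Cyfip2 (NSC -0.35), 0.28 for Ahr (NSC -1.29) and 0.26 for Tmem63b (NSC -0.29). With library size alone as the astrocyte scale, the signs were the same, but the counting interval then covered 0 for Mthfd1l (-0.49 to 0.02) and Shmt2 (-0.23 to 0.06). The values were 2.95 for Map3k7cl, -0.82 for Mthfd2, -0.23 for Mthfd1l, -0.08 for Shmt2, 0.64 for Zfyve1, 0.91 for Cyfip2, 0.57 for Ahr and 0.55 for Tmem63b.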

How the results depend on the processing

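In NSCs the 7 genes kept their direction with DESeq2, RLE factors, library size alone and no filter. DESeq2 gave 348 higher and 503 lower genes over all genes, 4 called list genes in place of 11, and 7.23 in place of 7.77 for the fitted log2 fold change of Gm13736. The deposited TPM moved most values. With limma on log2(TPM + 1) there were 38 higher and 107 lower genes, 0 called list genes and 0 called neighbours (12 and 2 at an unadjusted p under 0.05), and the log2 differences were 0.83 for Nnt, 0.65 for Wdfy1, 0 for Gm13736, -3.06 for Gm28438, -1.86 for Capn11 and -1.94 for Map3k7cl. With log2(TPM + 0.1) there were 31 higher and 85 lower genes, again 0 and 0 called (12 and 2 unadjusted), and 0.86 for Nnt, 0.67 for Wdfy1, 0 for Gm13736, -4.16 for Gm28438 and -3.82 for Rps4l. Gm28438 reversed because its TPM is listed at 576 in WT replicate 3 and at 0 in the other 5 libraries. The Wdfy1 TPM of WT replicate 3 (40.3) exceeded that of S89G-DMP1 replicate 3 (32.8), and the cause was not tested. Requiring at least 10 counts in every library left 2 of the 7 genes. The 1 Mb window gave 11 called genes in place of 3.

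In the 6 fits without 1 library each, the lowest and highest values were 571 and 733 higher genes, 770 and 926 lower genes, 8 and 12 called list genes, and 3 and 3 called neighbours. The log2 fold changes ran from 0.94 to 1.03 for Nnt, 1.25 to 1.52 for Wdfy1, 7.75 to 7.78 for Gm13736 (set by the prior count, since WT is at 0, and no sign of stability), 2.59 to 3.49 for Gm28438 (highest without WT replicate 2), -4.24 to -2.87 for Capn11 (lowest without S89G-DMP1 replicate 1), -2.47 to -2.06 for Rps4l and -2.64 to -2.29 for Map3k7cl. The replicate numbers did not pair the samples, with correlations of 0.03, -0.01 and -0.02 between same-numbered libraries. With the replicate number as a block, 829 genes were higher and 1016 lower, with 11 list genes and 3 neighbours called.

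In astrocytes, library size alone gave 0.19 for Nnt and 1.86 for Wdfy1. With log2(FPKM + 1), 1020 genes were past 2-fold lower, and the values were 0.17 for Nnt, 4.84 for Gm28438, -1.09 for Rps4l and 1.43 for Map3k7cl. With log2(FPKM + 0.1) they were 0.18 for Nnt and 1.86 for Wdfy1. Requiring at least 10 counts in both libraries left 1669 genes past 2-fold higher.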
